A study of Mus musculus with 46 samples.

Results

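Major histocompatibility complex (MHC) class I presentation was followed through 10 of the 24824 gene symbols in the deposited tables: the heavy chains H2-K1, H2-D1 and H2-T23, the light chain B2m, the peptide transporter Tap1 and Tap2, tapasin (Tapbp), the immunoproteasome subunits Psmb8 and Psmb9, and the transactivator Nlrc5. They were chosen by symbol and by what they encode, without a threshold on any measured value, and all 10 were listed and tested in each of the 4 tables. RNA of mouse microglia, the resident macrophages of the brain, had been captured with oligo(dT) beads and sequenced in 46 libraries, to compare microglia with and without Dicer, the endonuclease that cuts precursor microRNAs. The values are normalized reads, that is, read counts per gene multiplied by 1 factor per library, so that levels can be compared between libraries of a table but not between genes.

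The adult table held 4 control libraries (Cx3cr1CreER:Dicer+/-) and 3 Dicer-deficient libraries (Cx3cr1CreER:Dicerfl/-) from mice of 10 to 12 weeks. Cx3cr1CreER is a tamoxifen-inducible Cre recombinase driven by a gene of microglia and other mononuclear phagocytes. Controls and Dicer-deficient mice thus shared the Cre and 1 lost Dicer allele. The total brain and hippocampus tables used the same genotypes and age, at steady state or 6 h after intraperitoneal lipopolysaccharide (LPS, a bacterial cell wall component) at 1 mg/kg. Total brain had 3 control and 3 Dicer-deficient libraries at steady state and 4 of each after LPS, and the labels of the steady-state libraries also name PBS. The series text counts 3 Dicer-deficient total brain libraries after LPS where the sample labels give 4, and writes both adult genotypes alike, so the sample labels were followed. The hippocampus had 2 control and 3 Dicer-deficient libraries at steady state and 2 of each after LPS. The stage table held control microglia (Dicerfl/fl, with no Cre in their labels) from embryonic day 14 (E14, n = 4), birth (P0, n = 5) and adults of 6 to 8 weeks (n = 5), and 2 Dicer-deficient P0 libraries (Cx3cr1Cre:Dicerfl/fl). The E14 cells were sorted as CD45+CD11b+F4/80hi and the others as CD45int CD11b+F4/80+ without Ly6C or Ly6G, so that gate and stage cannot be told apart.

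Class I molecules carry peptides from inside the cell to its surface, where CD8 T cells and natural killer cells read them. Proteasomes cut the peptides, and interferon exchanges their standard catalytic subunits for Psmb8, Psmb9 and Psmb10. Tap1 and Tap2 pump the peptides into the endoplasmic reticulum, tapasin holds the transporter beside an empty heavy chain bound to B2m, and the loaded complex leaves for the surface. H2-K1 and H2-D1 are classical heavy chains that present varied peptides, while H2-T23 encodes Qa-1, a nonclassical chain that is read by inhibitory receptors of natural killer cells. Nlrc5 activates class I genes through the SXY module, a promoter unit whose X2 and Y boxes bind CREB/ATF and NF-Y proteins, and interferon and NF-kappa B signals act on neighbouring elements. Resting microglia are known for low class I levels that inflammation raises.

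In GRCm38.p6 (RefSeq), 8 of the 10 genes lie on chromosome 17 and 5 of them within the stretch from Tapbp (chr17:33919478-33929290) and H2-K1 (chr17:33996012-34000619) through Psmb9 (chr17:34182030-34187330), Tap1 (chr17:34187556-34197225) and Psmb8 (chr17:34198195-34201454). Tap2 (chr17:34204479-34216321) follows them, and H2-D1 (chr17:35263094-35267497) and H2-T23 (chr17:36029977-36032701) lie further along. B2m lies on chromosome 2 (chr2:122147687-122153082) and Nlrc5 on chromosome 8 (chr8:94434335-94527272). The RefSeq promoter table, which runs from 250 bases before to 50 bases after each listed transcript start, covered 8 of the 10, all but Tap2 and Nlrc5. H2-K1 had more than 1 entry, and its stretches below were counted from a transcript start inside the span given above.

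The B2m promoter is shown because 3 of the elements searched stand in it side by side. It covers chr2:122147537-122147676 on the plus strand, from position -150 to -11 relative to the start, which GENCODE places inside an intron of the opposite-strand gene Patl2. Capitals mark, from left to right, a match to GAAA and GAAA with any 2 bases between them (the core of the interferon-stimulated response element), a match to GGGA and CC with any 4 bases between them (the kappa B core, matched on both strands with an overlap of 9 bases), TGACG (the X2 box core) and ATTGG (the Y box core CCAAT read on the other strand).
B2m: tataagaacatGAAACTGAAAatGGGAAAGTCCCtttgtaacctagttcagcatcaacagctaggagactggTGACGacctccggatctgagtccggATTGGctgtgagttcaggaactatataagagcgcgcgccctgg

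The order of TGACG and then ATTGG, starting 12 to 40 bases after the start of TGACG, was found in 3 of the 8 promoters and in 1.02% of the 27025 genes with a promoter. The 30-base stretches are shown to compare the spacer between the boxes in H2-K1 (chr17:34000359-34000388, minus strand), H2-D1 (chr17:35262993-35263022, plus strand) and B2m (chr2:122147609-122147638, plus strand), with both boxes in capitals.
H2-K1: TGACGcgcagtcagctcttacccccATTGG
H2-D1: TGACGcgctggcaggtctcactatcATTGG
B2m: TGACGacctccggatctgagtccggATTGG
The boxes stood at the same spacing in all 3. The heavy chains shared 23 of 30 bases, and B2m shared 13 with H2-K1 and 12 with H2-D1. These counts include both boxes, which the search required to be the same, so they overstate how alike the spacers are.

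The kappa B stretch was nearly the same in both classical heavy chains, which share 29 of 30 bases at chr17:34000433-34000462 (H2-K1, minus strand) and chr17:35262919-35262948 (H2-D1, plus strand). Capitals mark the match, which is read on both strands with the matches overlapping by 9 bases.
H2-K1: ggctGGGGATTCCCCatctccacagtttca
H2-D1: ggctGGGGATTCCCCatctcctcagtttca
H2-T23 had neither of these. Its interferon-stimulated element (chr17:36032806-36032835, read on the gene's minus strand) is shown in capitals as TTTC and TTTC, the core read on the other strand. It was picked for display because H2-T23 took another course than the classical heavy chains in the values that follow. A link between promoter letters and that course was not tested, and B2m holds this core as well.
H2-T23: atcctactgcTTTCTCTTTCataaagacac
Over both strands of the 8 promoters, the interferon-stimulated core was found in 2 (H2-T23 and B2m; 3.99% of all promoters), TTCNNNGAA, the gamma-activated site core, in 1 (Psmb8; 9.55%), and the kappa B core in 3 (H2-K1, H2-D1 and B2m; 22.9%). TGACG was found in 5 (H2-K1, H2-D1, B2m, Tap1 and Psmb9; 23%) and CCAAT in 7 (all but Psmb8; 41.1%). A match describes the letters in this window and does not show that a factor binds there.

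**Figure D1:**
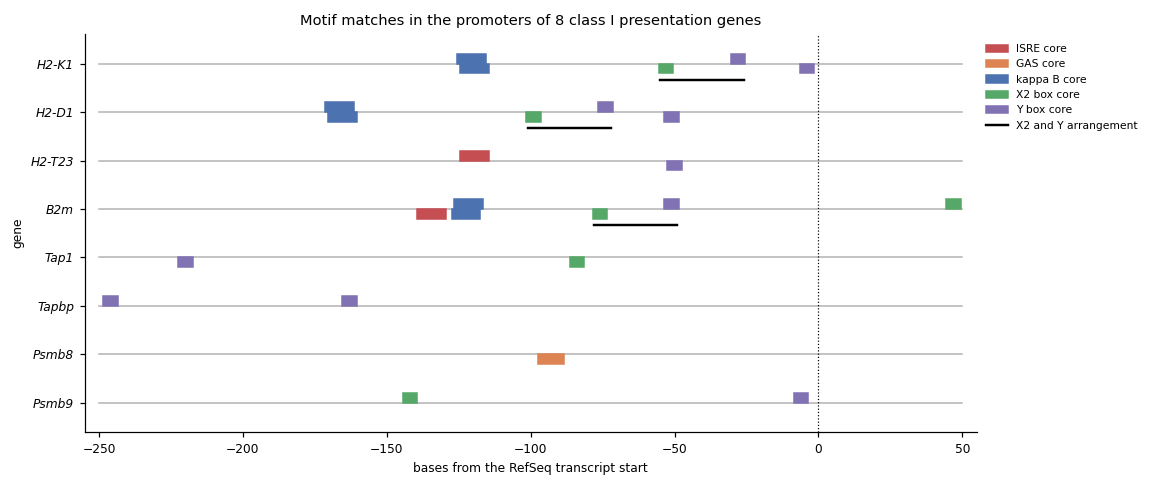
Matches to the 5 motif cores in the promoters of the 8 genes with an entry, by distance in bases from the listed transcript start (horizontal axis). Rectangles on one side of each line are matches on the gene's strand, and those on the other side matches on the opposite strand. Black lines join TGACG and ATTGG where they stand 12 to 40 bases apart. The joined pair appears in H2-K1, H2-D1 and B2m, and the interferon-stimulated core in H2-T23 and B2m.

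The 46 libraries held 898451 to 4573063 reads, and the 10 genes together took 0.230% to 0.916% of them. A gene was called where its Benjamini-Hochberg adjusted p over all genes tested, from limma on log2(normalized reads + 1), was under 0.05, and changes are differences on that scale with their standard error (SE). The labels do not say that libraries came from separate animals, so a p-value here speaks of variation among libraries, which may be technical. Microglial identity genes (10 listed, among them Cx3cr1, P2ry12 and Tmem119) were above 0 in every group, and T cell, B cell and natural killer cell genes summed to at most 11.96 normalized reads per library. Dicer1 RNA averaged 37.25 to 140.2 normalized reads per group and was called in no Dicer comparison, but reads captured at the 3' end need not cover the deleted exons and do not check the genotype. Of the 50-base windows of the longest transcript, 28.8% in H2-T23, 14.3% in H2-D1 and 8.79% in H2-K1 also occur in other genes, mostly other H2 genes, and at most 2.0% in the other 7 members, so heavy chain values can hold reads of their relatives. In the last 500 bases, nearest to oligo(dT) capture, the shares were 38.1% in H2-T23, 9.53% in H2-D1 and 0.443% in H2-K1.

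In total brain, LPS raised the classical heavy chains, the transporter subunit Tap1 and Nlrc5 in microglia of both genotypes, while B2m, H2-T23, tapasin and both immunoproteasome subunits were not called in either. In control microglia 4 of the 10 genes rose and 0 fell, where 14.1% of all genes tested were called (7.05% higher, 7.08% lower). In Dicer-deficient microglia 5 rose, Tap2 being the added one, and 0 fell, where 24.9% of all genes were called (12.2% higher, 12.8% lower). The median change of the 10 genes was 0.03 in control and 0.67 in Dicer-deficient microglia, beside -0.05 and -0.04 over all genes. The genotypes share no library in these contrasts, and the interaction that compares them is given below.

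H2-K1 stood at 1020, 1192 and 978.7 normalized reads in the 3 steady-state controls and at 2318, 3688, 6038 and 2198 in the 4 controls after LPS. It stood at 881.2, 2776 and 750.0 in steady-state Dicer-deficient libraries and at 3074, 4811, 4849 and 5984 after LPS. Every library after LPS lay above every steady-state library of its genotype. The change was 1.62 (SE 0.398, adjusted p = 0.0132) in control and 1.89 (SE 0.398, adjusted p = 0.00199) in Dicer-deficient microglia by limma, or 3.08-fold and 3.71-fold.

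H2-D1 stood at 1437, 2130 and 1446 normalized reads in steady-state controls and at 2430, 3892, 6296 and 3720 after LPS. In Dicer-deficient libraries it stood at 1047, 2905 and 1059 and after LPS at 2981, 3848, 4278 and 4697. The groups did not overlap in either genotype, although steady-state library 11b (2905) came close to the lowest library after LPS (2981). By limma the change was 1.23 (SE 0.345, adjusted p = 0.0246) in control and 1.40 (SE 0.345, adjusted p = 0.00645) in Dicer-deficient microglia.

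Tap1, the transporter subunit, had a narrow range of 219.4 to 229.7 normalized reads in steady-state controls and stood at 402.4, 446.2, 957.0 and 368.4 after LPS. In Dicer-deficient libraries it stood at 247.8, 457.4 and 249.4 and after LPS at 559.2, 870.2, 911.1 and 1182. It rose without overlap in both, by 1.15 (SE 0.307, adjusted p = 0.0201) and 1.48 (SE 0.307, adjusted p = 0.00184; limma). Its partner Tap2 behaved otherwise in control microglia, with 329.0, 260.7 and 363.0 normalized reads at steady state and 377.7, 245.6, 390.3 and 248.6 after LPS, a change of -0.03 (SE 0.204, adjusted p = 0.942). In Dicer-deficient libraries Tap2 went from 279.6, 371.0 and 362.6 to 537.9, 438.9, 532.1 and 587.9, and rose by 0.64 (SE 0.204, adjusted p = 0.0296; limma).

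Nlrc5, the transactivator, was the member with the widest change and the fewest reads. Steady-state controls held 15.1, 19.3 and 13.8 normalized reads and controls after LPS 118.7, 58.8, 216.8 and 53.5. Dicer-deficient libraries held 7.7, 27.4 and 1.9 at steady state, on 2 to 39 reads each, and 52.8, 116.1, 135.4 and 180.5 after LPS. Both genotypes were without overlap, and Nlrc5 rose by 2.51 (SE 0.615, adjusted p = 0.0133) and 3.64 (SE 0.615, adjusted p = 0.000369; limma).

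The light chain, tapasin and the immunoproteasome gave no call under LPS. B2m ran from 4034 to 6453 normalized reads in steady-state controls and from 3226 to 5270 after LPS, and from 2449 to 5990 and from 4751 to 9209 in Dicer-deficient libraries, with changes of -0.14 (adjusted p = 0.811) and 0.71 (adjusted p = 0.121; limma). Psmb8 changed by 0.10 and 0.04, Psmb9 by -0.38 and -0.06, and Tapbp by -0.14 and 0.02, in control and Dicer-deficient microglia. H2-T23 differed in sign from the classical chains, with changes of -0.24 (adjusted p = 0.633) and -0.73 (adjusted p = 0.0829; limma). Standard errors were 0.168 to 0.324 for these 5 genes.

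Among 65 other genes of the pathway listed with the 10, 58 were tested. In control microglia 8 rose after LPS: the nonclassical heavy chain H2-Q7, the proteasome genes Psme1, Psme3 and Psmb6, the interferon-response factors Irf7, Irf9 and Stat2, and the interferon gamma receptor chain Ifngr1. The 2 that fell were Irf8 and Nfkb1. In Dicer-deficient microglia 17 rose and 4 fell (Mr1, Hfe, Irf8 and Nfkb1), and the immunoproteasome subunit Psmb10 (0.73, adjusted p = 0.0315), the tapasin-related Tapbpl (1.36, adjusted p = 0.000214) and Irf1 (1.35, adjusted p = 0.0153; limma) were among those that rose. Irf7, a master regulator of type I interferon, rose by 3.04 in control and 3.36 in Dicer-deficient microglia, and H2-Q7 by 3.33 and 3.01. The called shares were 17.2% and 36.2% of the pathway genes, beside the 14.1% and 24.9% of all genes. Of 8 class II genes, Cd74, the invariant chain, rose in both genotypes (1.79 and 2.97), H2-DMb1 fell in both, and H2-DMa fell in Dicer-deficient microglia.

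In control microglia the LPS calls depended on single libraries and on which groups were fitted. By limma all 4 were lost without control 9, 3 without control 7 or without LPS control 32, and all 4 when only the 2 groups compared were fitted. In Dicer-deficient microglia H2-K1, H2-D1, Tap1 and Nlrc5 were called with any 1 library left out, and Tap2 was lost in 5 of 7 refits (adjusted p up to 0.147), without LPS library 35, 37 or 38 or without steady-state library 5 or 12. Libraries also differed in cell markers. The summed microglial markers were 84070 to 88620 normalized reads at steady state and 39700 to 80950 after LPS, the highest being LPS control 33. Neutrophil and monocyte markers (14 genes) summed to 15.1 to 43.6 in steady-state controls and 22.3 to 390 in steady-state Dicer-deficient libraries. After LPS they summed to 139.4 to 3837 in controls and 638.2 to 3638 in Dicer-deficient libraries. The neutrophil gene Ly6g was at 0 in every total brain group but the LPS controls. The other 13 markers were above 0 in LPS Dicer-deficient libraries. Red blood cell genes summed to 56.9 to 280.8 in steady-state Dicer-deficient libraries and 1913 to 4445 after LPS, and to 234.5 to 1447 and 180.6 to 7824 in controls. Astrocyte markers ran from 392.1 to 798.6 and from 1094 to 2036 in Dicer-deficient libraries at steady state and after LPS. The part of these cells in the class I changes was not tested, and in bulk libraries more cells of a type and more RNA per cell cannot be told apart.

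**Figure D2:**
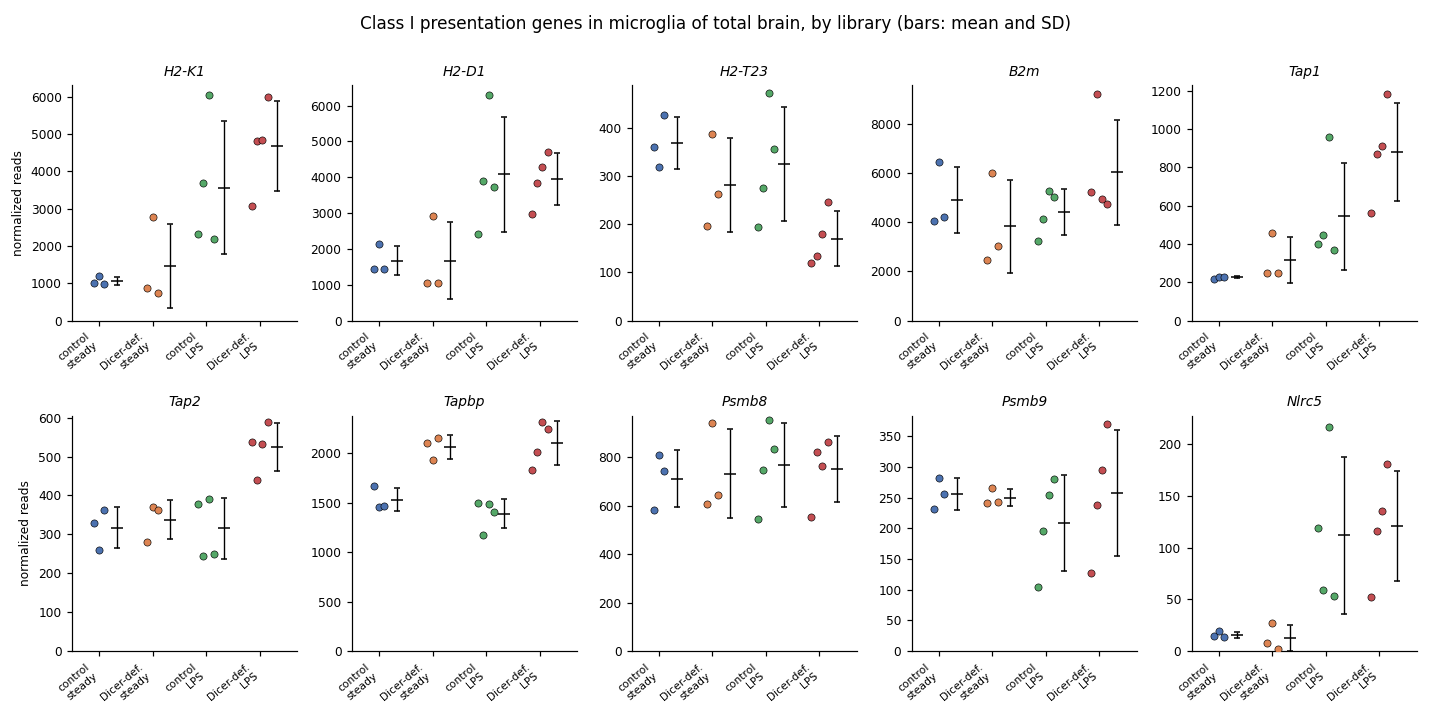
Normalized reads (vertical axes, linear from 0) of the 10 genes in the 14 total brain libraries by genotype and LPS; points are libraries, bars mean and SD, cut at 0. H2-K1, H2-D1, Tap1 and Nlrc5 lie higher after LPS in both genotypes, and Tap2 and Tapbp separate the genotypes after LPS.

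Comparing the genotypes directly, 0 of the 10 genes were called at steady state in total brain by limma, where 2.18% of all genes were called (0.797% higher, 1.38% lower). At an unadjusted p under 0.05 there was 1, edgeR called 0 and DESeq2 called 1, Tapbp (0.50, adjusted p = 0.0211). Changes ran from -0.92 for Nlrc5 to 0.43 for Tapbp, and 2 of the 10, Tap1 and Tapbp, had no overlap between the groups, where 22.8% of all genes had none. Library 11b set much of the spread, since it held the highest value of the 3 Dicer-deficient libraries for 9 of the 10 genes. It also had the lowest Cx3cr1 of the 3 (2487 normalized reads, against 5575 and 5330) and the highest neutrophil and monocyte sum, and their part in its class I values was not tested.

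After LPS, microglia lacking Dicer had more RNA of Tap2 and tapasin and less of the nonclassical chain H2-T23 than control microglia. These 3 of 10 genes were called, 2 higher and 1 lower, where 9.4% of all genes were called (3.93% higher, 5.46% lower), and the median of the 10 was 0.36 beside -0.10 over all genes. Tap2 stood at 537.9, 438.9, 532.1 and 587.9 normalized reads in Dicer-deficient libraries against 377.7, 245.6, 390.3 and 248.6 in controls, without overlap (0.76, SE 0.190, adjusted p = 0.0183). Tapbp, which links the transporter to the heavy chain, stood at 1825, 2014, 2314 and 2242 against 1491, 1174, 1489 and 1404, also without overlap (0.59, SE 0.154, adjusted p = 0.0218; limma). H2-T23 stood at 119.4, 134.7, 180.3 and 245.6 against 195.0, 275.9, 471.9 and 357.5, and the groups overlapped through libraries 38 and 17 (-0.91, SE 0.276, adjusted p = 0.0461; limma).

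The LPS-raised members showed no called genotype difference after LPS. H2-D1 differed by 0.01 (SE 0.319, adjusted p = 0.988), H2-K1 by 0.48 (SE 0.368, adjusted p = 0.467), Tap1 by 0.76 (SE 0.285, adjusted p = 0.108) and Nlrc5 by 0.22 (SE 0.571, adjusted p = 0.863) in limma. The interaction, the LPS change in Dicer-deficient minus that in control microglia, was called for 0 of the 10 genes, where 0.171% of all genes were called (0.127% higher, 0.0447% lower). At an unadjusted p under 0.05 there was 1, Tap2 (0.67, SE 0.289, adjusted p = 0.458), and edgeR and DESeq2 called 0. Tap2 was called under LPS in 1 genotype only, and this test does not show that the genotypes differ.

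Of 57 other pathway genes tested for Dicer after LPS, 5 were higher and 3 lower. The higher ones were the tapasin-related Tapbpl (0.95, adjusted p = 0.00634), the Y box factor subunit Nfyc (0.64, adjusted p = 0.0491), the NF-kappa B subunit Relb (1.70, adjusted p = 0.000586), Ifngr2 (1.09) and Jak1 (0.72). The lower ones were the class I-like Cd1d1 (-2.12), the chaperone Canx (-0.52) and Irf8 (-0.93), a transcription factor of microglia and other myeloid cells. Of 8 class II genes Cd74 was higher (2.23) and H2-DMa (-1.49) and H2-Ob (-1.87) were lower. At steady state 0 of 58 pathway genes were called, where 2.18% of all genes were, and of the class II genes H2-Ob was lower (-2.20). Relb was also the 1 pathway gene of 58 called in the interaction (2.27, adjusted p = 0.0155 by limma), a share of 1.72% beside 0.171% of all genes.

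Leaving out 1 library ended all 3 genotype calls after LPS without Dicer-deficient library 37 or control 31. Only H2-T23 was left without Dicer-deficient library 38. The H2-T23 call was the least stable, lost in 6 of 8 refits (adjusted p up to 0.128 by limma). It was also lost without Dicer-deficient library 35 or 36 or control 32 or 33, while Tap2 and Tapbp were lost in 3 refits each. Fitting only the 2 groups left 0, and H2-T23 was also lost with edgeR (-0.85, adjusted p = 0.0682). Summed astrocyte markers (4 genes, Aqp4 at 0 in both groups) ran from 1094 to 2036 normalized reads in Dicer-deficient and from 593.4 to 857.9 in control libraries after LPS, and neuron markers (4 genes, all above 0) from 24.9 to 32.5 and from 4.5 to 13.5, without overlap, and their part in the class I values was not tested.

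The hippocampus repeated part of this with 2 or 3 libraries per group. H2-K1 rose after LPS in control microglia, and H2-T23 fell after LPS in Dicer-deficient microglia. These were the only called members, 1 of 10 in each contrast, where 5.23% of all genes (2.35% higher, 2.89% lower) and 8.47% (3.87% higher, 4.61% lower) were called. Between genotypes 0 of 10 were called at steady state (0.17% of all genes, 0.154% higher and 0.0162% lower), after LPS (0.307%, 0.162% higher and 0.146% lower) or in the interaction (0.0162%, all of them lower).

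H2-K1 stood at 1089 and 734.1 normalized reads in the steady-state controls and at 2037 and 4556 after LPS (1.77, SE 0.417, adjusted p = 0.0292; limma). Steady-state Dicer-deficient libraries held 963.9, 1039 and 1086 and LPS libraries 1599 and 3863, without overlap and not called (1.27, SE 0.380, adjusted p = 0.0619). H2-D1 in controls went from 2404 and 1660 to 3134 and 5765, likewise without overlap and not called (1.09, SE 0.336, adjusted p = 0.0923; limma).

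H2-T23, the nonclassical chain, stood at 245.2, 454.7 and 576.0 normalized reads in steady-state Dicer-deficient libraries and at 87.46 and 186.3 after LPS, without overlap (-1.64, SE 0.437, adjusted p = 0.0374; limma). In controls it went from 364.0 and 411.7 to 290.4 and 597.2 (0.11, SE 0.479, adjusted p = 0.955). After LPS the Dicer-deficient libraries lay below both controls (-1.70, SE 0.479, adjusted p = 0.219; limma), and the interaction of -1.75 (SE 0.648) had an adjusted p of 0.808. H2-T23 was the 1 member with an unadjusted p under 0.05 in each of these last contrasts, edgeR called 0 members in both, and DESeq2 called H2-T23 in the first of them alone.

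Nlrc5 stood at 30.17 and 25.83 normalized reads in hippocampal controls at steady state and at 129.7 and 138.4 after LPS. In Dicer-deficient libraries it was listed at 0, 36.13 and 8.912 and after LPS at 59.69 and 83.42. No library after LPS fell within the steady-state range of its genotype, but with this spread neither change was called (2.22, SE 1.34, adjusted p = 0.438, and 3.32, SE 1.23, adjusted p = 0.125; limma). At steady state 0 members reached even an unadjusted p under 0.05 between genotypes, and edgeR and DESeq2 also called 0. B2m in hippocampal LPS libraries stood at 5892 and 4192 in controls and 10440 and 3824 in Dicer-deficient microglia. Both control values thus lay between the Dicer-deficient ones.

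In the hippocampus 4 of 56 other pathway genes rose in controls after LPS (H2-Q7, Irf7, Stat2 and Relb) and 0 fell. In Dicer-deficient microglia Irf9, Stat2, Relb and Jak1 rose and Fcgrt and Irf8 fell. The called shares were 7.14% and 10.7% of the pathway genes, beside 5.23% and 8.47% of all genes. Of 8 class II genes, the counterparts that present peptides from outside the cell, 5 fell in both genotypes (H2-Aa, H2-Ab1, H2-Eb1, H2-DMa and H2-DMb1) and 0 rose, H2-Ab1 with changes of -3.27 in controls and -1.93 in Dicer-deficient microglia. The H2-K1 call was lost without LPS control 16 or either steady-state control. The H2-T23 call was lost without LPS Dicer-deficient library 18 or steady-state Dicer-deficient library 5 or 6, and both calls when only the 2 groups were fitted. Steady-state control 1 had Cx3cr1 at 687.6 normalized reads against 7139 in the other, and neutrophil and monocyte markers summed to 490.2 to 2502 in steady-state controls, 7594 to 7735 in steady-state Dicer-deficient libraries, 39.35 to 1261 in LPS controls and 310.1 to 320.7 in LPS Dicer-deficient libraries. Border macrophage markers (8 genes) summed to 778.3 to 1012 in LPS Dicer-deficient libraries, where 4 of them were at 0. They summed to 1739 to 1907 in those at steady state, with all 8 above 0, and 1476 to 1726 in LPS controls. Astrocyte markers (4 genes) summed to 1214 to 1567 in LPS Dicer-deficient libraries, where Aqp4 and Aldh1l1 were at 0. In the same 2 other groups they summed to 519.3 to 735.6 and 476.0 to 955.2, with Gfap and Aqp4 at 0. The part of these cells in the class I values was not tested.

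In the adult table, taken at steady state, Dicer-deficient microglia had less H2-D1 and less Nlrc5 than controls. These were 2 of the 10 genes, both lower, where 5.15% of all genes were called (3.15% higher, 2% lower). The median of the 10 was -0.21, beside 0.05 over all genes. The other classical chain and tapasin moved in opposite directions without a call, and the remaining 6 changed by -0.40 to 0.33.

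H2-D1 stood at 3501, 3019 and 2772 normalized reads in the Dicer-deficient libraries against 7845, 4566, 5139 and 5983 in controls. The groups were apart, and the change was -0.90 (SE 0.176, adjusted p = 0.00547; limma), a 1.87-fold lower level. H2-K1 stood at 2956, 1873 and 2151 against 4460, 3337, 2685 and 3312, where Dicer-deficient library 1 overlapped control 3 (-0.57, SE 0.184, adjusted p = 0.0861; limma).

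Nlrc5 stood at 44.05, 19.31 and 32.45 normalized reads against 133.6, 67.79, 118.1 and 97.58 in controls, without overlap (-1.71, SE 0.434, adjusted p = 0.0285; limma), a 3.27-fold lower level on 5 to 27 reads per library. Tapbp stood at 3454, 2799 and 4501 against 2579, 2309, 2696 and 1977, also without overlap, higher but not called (0.57, SE 0.170, adjusted p = 0.0625). B2m (-0.40, SE 0.253), H2-T23 (-0.16, SE 0.178), Psmb8 (-0.05, SE 0.176), Psmb9 (-0.26, SE 0.224), Tap1 (0.33, SE 0.219) and Tap2 (0.16, SE 0.180) all overlapped between genotypes.

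Of 51 other pathway genes tested, 2 were higher in Dicer-deficient adult microglia by limma, Nfkb1 (0.57, adjusted p = 0.0450) and Ifngr2 (0.72, adjusted p = 0.00768), and 0 were lower. The called share was 3.92%, beside 5.15% of all genes. Of 8 class II genes H2-DMa (-0.85) and H2-Ob (-2.32) were lower and 0 higher. H2-D1 was called with any 1 library left out (-1.01 to -0.753). Nlrc5 was lost without Dicer-deficient library 2 or control 1, 3 or 4 (adjusted p 0.0296 to 0.0898 over the 7 refits). DESeq2 called 4 members, adding H2-K1 lower and Tapbp higher, and edgeR called 3, adding H2-K1. Sums of endothelial and astrocyte markers differed with genotype in this table, without overlap. Endothelial markers (6 genes, Cldn5 at 0 in both) summed to 82.92 to 129.8 normalized reads in Dicer-deficient and 163.3 to 215.3 in control libraries. Astrocyte markers (4 genes, Gfap at 0 in both) summed to 606.3 to 1124 and 1381 to 1563. Lymphocyte markers (8 genes, Cd3e at 0 in both) summed to 0 to 2.591 and 5.37 to 11.96. There, 2.591 in Dicer-deficient library 1 and 5.37 in control 3 are each 1 read, so these nearest sums differ by the scaling alone. The other controls summed higher, up to 11.96, and all these sums rest on few reads. The part of these cells in the class I values was not tested. The steady-state total brain libraries, of the same genotypes and age by their labels, had H2-D1 at -0.15 (SE 0.369) and Nlrc5 at -0.92 (SE 0.658), and the difference between the tables was not tested, since each was normalized separately.

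**Figure D3:**
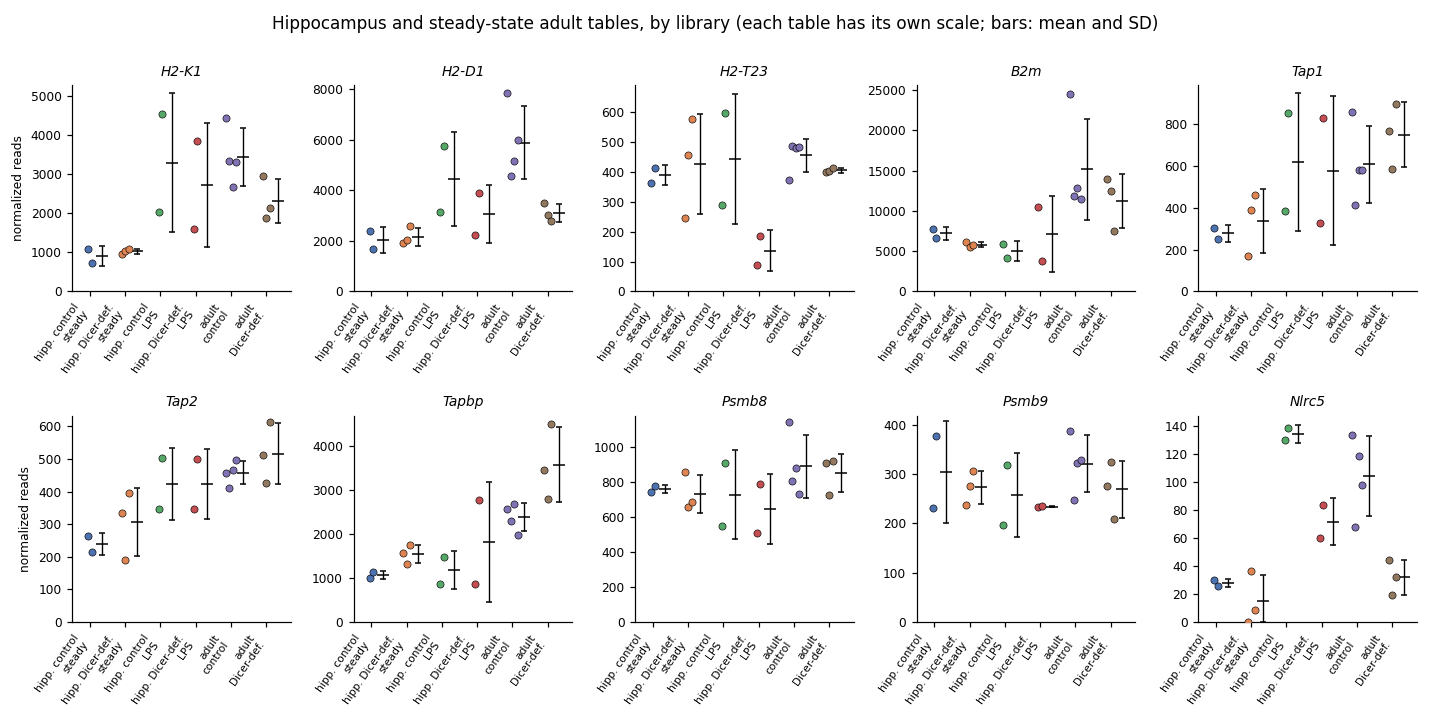
Normalized reads (vertical axes, linear from 0) of members in the hippocampus libraries by genotype and LPS and in the adult libraries by genotype; points are libraries, bars mean and SD, cut at 0. H2-K1 lies higher after LPS and H2-T23 lower in Dicer-deficient hippocampal libraries after LPS, while H2-D1 and Nlrc5 lie lower in the 3 Dicer-deficient adult libraries.

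Along development, most of the 10 genes were lowest at birth in control microglia. From E14 to P0, 8 of the 10 genes fell and 0 rose, where 29.3% of all genes were called (11% higher, 18.3% lower). From P0 to adult all 10 rose, where 49.1% were called (22.3% higher, 26.8% lower). Adult microglia against E14 had 4 genes higher and 1 lower, where 56.3% were called (23% higher, 33.3% lower). The median of the 10 was -0.67, 1.03 and 0.19 in these 3 contrasts, beside -0.11, -0.08 and -0.13 over all genes. The contrasts share stages, so a gene low at P0 enters both of the first.

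H2-T23 had the largest adult rise of the 10. It stood at 62.93 to 78.29 normalized reads in the 4 E14 libraries, with a mean of 69.49 ± 6.79 (SD, n = 4). The P0 libraries held 33.44, 27.38, 39.53, 95.58 and 38.53, with library 4 above the rest and above E14. Adult libraries held 300.1, 244.7, 392.6, 357.6 and 290.3, all above every younger library, and the rise from P0 was 2.86 (SE 0.232, adjusted p = 3.43e-09), or 7.26-fold. From E14 to adult it rose by 2.16 (SE 0.247, adjusted p = 2.81e-07; limma).

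The classical chains rose less. H2-K1 averaged 723.5 ± 111 normalized reads at E14 (SD, n = 4), 489.0 ± 152 at P0 (n = 5) and 1001 ± 161 in adults (n = 5). It fell by 0.60 (SE 0.180, adjusted p = 0.0167) and then rose by 1.07 (SE 0.170, adjusted p = 2.69e-05; limma), the adults lying above every P0 library. H2-D1 ran from 1050 to 1252 at E14, from 540.8 to 1008 at P0 and from 1113 to 2232 in adults. It fell by 0.64 (SE 0.201, adjusted p = 0.0208) and rose by 0.98 (SE 0.189, adjusted p = 0.000207), and adults and E14 were not told apart (0.34, SE 0.201, adjusted p = 0.152; limma).

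B2m stayed below its E14 level. It stood at 4879, 7284, 5839 and 5788 normalized reads at E14, at 2114, 2889, 2847, 2227 and 3371 at P0 and at 3095, 3778, 3948, 4328 and 5745 in adults. E14 lay above all P0 libraries (-1.15, SE 0.190, adjusted p = 0.000182). The adult rise of 0.63 (SE 0.178, adjusted p = 0.00615; limma) left adults lower than E14 by -0.52 (SE 0.190, adjusted p = 0.0233). With edgeR, whose scaling moved the median of all genes in this contrast from -0.13 to -0.01, B2m was not called between adults and E14, and H2-D1 was called higher, which made 5 higher and 0 lower.

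Tap2 and tapasin did not fall at birth. Tap2 stood at 76.97 to 82.52 normalized reads at E14, at 77.07 to 112.1 at P0 and at 186.0 to 271.8 in adults, who lay above all younger libraries. It changed by 0.27 (SE 0.148, adjusted p = 0.186) to P0 and rose by 1.28 (SE 0.140, adjusted p = 2.26e-07; limma) to adult. Tapbp ran from 294.7 to 386.4 at E14, from 266.3 to 392.5 at P0 and from 574.7 to 923.7 in adults, changing by -0.14 (SE 0.151, adjusted p = 0.533) and then rising by 1.15 (SE 0.142, adjusted p = 1.08e-06; limma). Tap1, the other subunit of the transporter, took another course. It ran from 175.0 to 229.2 at E14, from 88.99 to 183.5 at P0 and from 141.2 to 220.2 in adults, fell by 0.73 (SE 0.176, adjusted p = 0.00444), rose by 0.55 (SE 0.166, adjusted p = 0.0093) and was not called between adults and E14 (-0.17, adjusted p = 0.42; limma).

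Both immunoproteasome subunits fell to P0 and rose to adult. Psmb8 ran from 600.2 to 730.3 normalized reads at E14, from 401.3 to 497.2 at P0 and from 491.9 to 642.1 in adults, falling by 0.56 (SE 0.117, adjusted p = 0.00137) and rising by 0.29 (SE 0.110, adjusted p = 0.0359; limma). Psmb9 ran from 172.1 to 212.5, then from 87.12 to 134.5, then from 132.5 to 219.2, falling by 0.74 (SE 0.162, adjusted p = 0.00196) and rising by 0.77 (SE 0.152, adjusted p = 0.00028). Between adults and E14, Psmb8 was at 541.9 against 654.3 on average (-0.27, SE 0.117, adjusted p = 0.0517) and Psmb9 at 194.2 against 187.9 (0.03, SE 0.162, adjusted p = 0.892; limma), neither of them called. Of 8 other proteasome genes, 4 were called lower and 0 higher from P0 to adult. The standard subunits Psmb6 and Psmb7, which the immunoproteasome replaces, fell by 1.06 (adjusted p = 5.27e-06) and 0.90 (adjusted p = 2.55e-05 by limma). The standard subunit Psmb5 averaged 106.0 normalized reads at P0 and 90.12 in adults, with overlapping ranges. The immunoproteasome subunit Psmb10 averaged 337.5 and 397.8, also with overlap. An exchange of subunits was not tested.

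Nlrc5 followed the same course on few reads. It stood at 17.05, 29.64, 29.4 and 21.3 normalized reads at E14, at 1.454, 3.111, 3.8, 5.31 and 9.341 at P0, on 1 to 9 reads per library, and at 22.25, 34.21, 19.85, 5.079 and 19.15 in adults. E14 and P0 did not overlap, while adult library 4 lay within the P0 range. It fell by 2.30 (SE 0.442, adjusted p = 0.000706) and rose by 1.87 (SE 0.415, adjusted p = 0.000843; limma).

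Of 57 other pathway genes tested from E14 to P0, 14 fell and 3 rose, and of 56 from P0 to adult 24 rose and 7 fell. The interferon-response factor Irf7 fell by 3.32 (adjusted p = 1.53e-07) to P0 and rose by 1.25 (adjusted p = 0.000713; limma) to adult. Of 17 transcriptional regulators 11 rose to adult and 0 fell. Among them, Rfx5, Rfxap, Rfxank and Creb1, which bind the X boxes of the SXY module, rose, and the Y box subunits Nfya (123.3 and 114.6 normalized reads on average at P0 and in adults), Nfyb (67.2 and 62.35) and Nfyc (53.04 and 54.56) were not called. The called shares in either direction, 29.8% and 55.4%, stood near the 29.3% and 49.1% of all genes. By direction, 24 of 56 were higher and 7 lower from P0 to adult, where 22.3% of all genes were higher and 26.8% lower. From E14 to adult, 19 of 57 rose and 16 fell (61.4%, beside 56.3% of all genes), the latter including Psme1, Psme2, Psme3, Psmb5, Psmb6, Psmb7 and Pomp of the proteasome. H2-T9 and H2-T22, counted among the risers to adult, held equal values in 44 of 46 libraries, so their reads were not told apart. Of 8 class II genes 1 rose and 3 fell from E14 to P0, 6 rose and 0 fell from P0 to adult, and 4 rose and 0 fell from E14 to adult.

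B2m, Tap1, Psmb8, Psmb9 and Nlrc5 were called lower at P0 with any 1 library left out, and in the rise to adult only Psmb8 was ever lost (5 of 10 refits, adjusted p up to 0.0911). The fall of H2-T23 was lost in 8 of 9 refits, that is, without any of the 4 E14 libraries or without P0 library 1, 2, 3 or 5, and those of H2-K1 and H2-D1 in 2 and 4. The H2-K1 call was lost without E14 library 1 or 3, and the H2-D1 call without E14 library 1 or 4 or P0 library 1 or 2. For adults against E14, 3 of the 5 calls were left without adult library 1. In that contrast the H2-K1 call was lost in 5 of 9 refits (adjusted p up to 0.125 by limma) and the B2m call in 2. Adult libraries 2, 4 and 5 had Cx3cr1 at 490.4, 1188 and 940.3 normalized reads, against 7454 and 8687 in libraries 1 and 3. With libraries 1 and 3 alone, a choice made after seeing the data, 8 of the 10 genes still rose from P0, B2m (0.40, adjusted p = 0.152) and Psmb8 (0.23, adjusted p = 0.232; limma) being the exceptions. Red blood cell genes summed to 7813 to 29650 normalized reads at P0, 297 to 555 at E14 and 24 to 1288 in adults, and border macrophage genes to 1746 to 2203, 1106 to 1634 and 542 to 793, and their part in the stage differences was not tested.

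**Figure D4:**
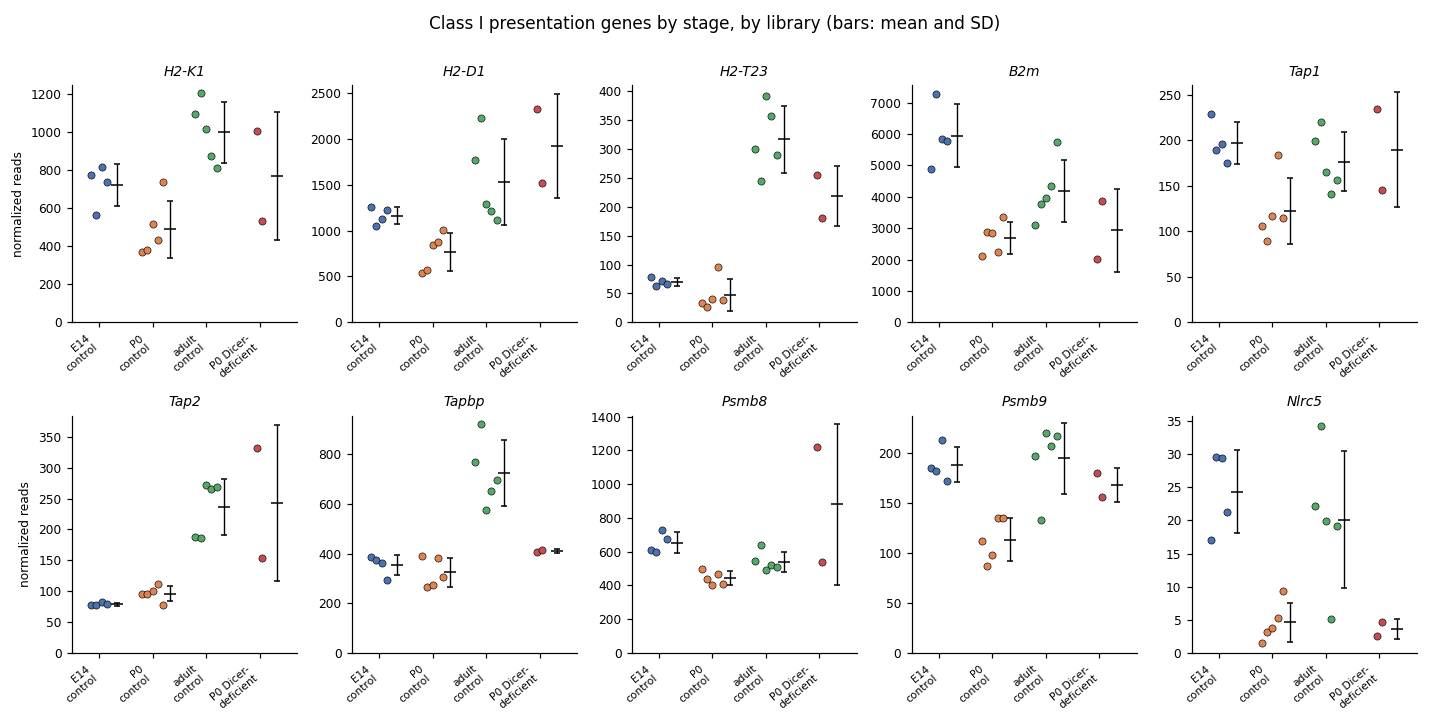
Normalized reads (vertical axes, linear from 0) of the 10 genes in control microglia at E14, P0 and in adults and in Dicer-deficient microglia at P0; points are libraries, bars mean and SD. P0 controls were called lower than E14 for 8 of the genes, adult H2-T23, Tap2 and Tapbp lie above all younger controls, and H2-T23 in the 2 Dicer-deficient P0 libraries (254.8 and 181.4) lies above every P0 control.

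Newborn microglia lacking Dicer had more H2-T23 than the 3 P0 controls that the labels assign to that comparison. It was the 1 member of 10 called, where 1.48% of all genes were called (1.04% higher, 0.444% lower). All 10 changes were positive, with a median of 0.82 beside -0.06 over all genes, and 8 of the 10 did not overlap between groups, B2m and Nlrc5 being the exceptions. Over all genes tested 37.9% did not overlap between these 2 and 3 libraries, 17.3% with the Dicer-deficient ones higher. The controls carry no Cre by their labels, so Dicer loss and the Cx3cr1Cre allele cannot be told apart.

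H2-T23 stood at 254.8 and 181.4 normalized reads in the Dicer-deficient libraries against 33.44, 27.38 and 39.53 in the controls. Both lay above all controls, and the change was 2.66 (SE 0.321, adjusted p = 0.00454; limma), or 6.34-fold. They also exceeded the other P0 controls, at 95.58 and 38.53. Library 1 lay within the range of the adult controls of the same table (244.7 to 392.6) and library 2 below it.

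H2-D1 stood at 2324 and 1519 normalized reads against 540.8, 570.6 and 838.4, without overlap and just short of the threshold (1.56, SE 0.328, adjusted p = 0.0507; limma). Tap2 stood at 332.7 and 153.3 against 95.96, 95.83 and 99.57 (1.21, SE 0.343, adjusted p = 0.106). H2-K1 (0.81, SE 0.332), Tap1 (0.83, SE 0.304), Psmb8 (0.87, SE 0.353), Psmb9 (0.76, SE 0.273) and Tapbp (0.42, SE 0.276) lay higher in both libraries, and B2m (0.10, SE 0.393) and Nlrc5 (0.31, SE 0.626) overlapped. Of 54 other pathway genes tested 1 was called (1.85%, beside 1.48% of all genes), the class I-like iron regulator Hfe (1.52, adjusted p = 0.0255 by limma).

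The newborn libraries differed in more than class I RNA. Dicer-deficient library 1 summed to 2579576 normalized reads, above the other libraries of its table, had Cx3cr1 at 647.3 against 3129 in library 2, and held the higher value for 7 of the 10 genes. Leaving out either Dicer-deficient library sets 1 library against 3 controls, so no calls are given for those refits. Over the 5 refits with 1 library left out, H2-T23 changed by 2.42 to 2.91. Without P0 control 1 or 2, 0 members were called, H2-T23 included (adjusted p up to 0.159 by limma). With all 5 P0 controls 3 members were called, H2-T23, H2-D1 (1.34, adjusted p = 0.0163) and Tap2 (1.23, adjusted p = 0.0209; limma). Red blood cell genes summed to 4628 to 7515 normalized reads in the Dicer-deficient libraries and 12350 to 14650 in their controls, and their part was not tested.

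**Figure D5:**
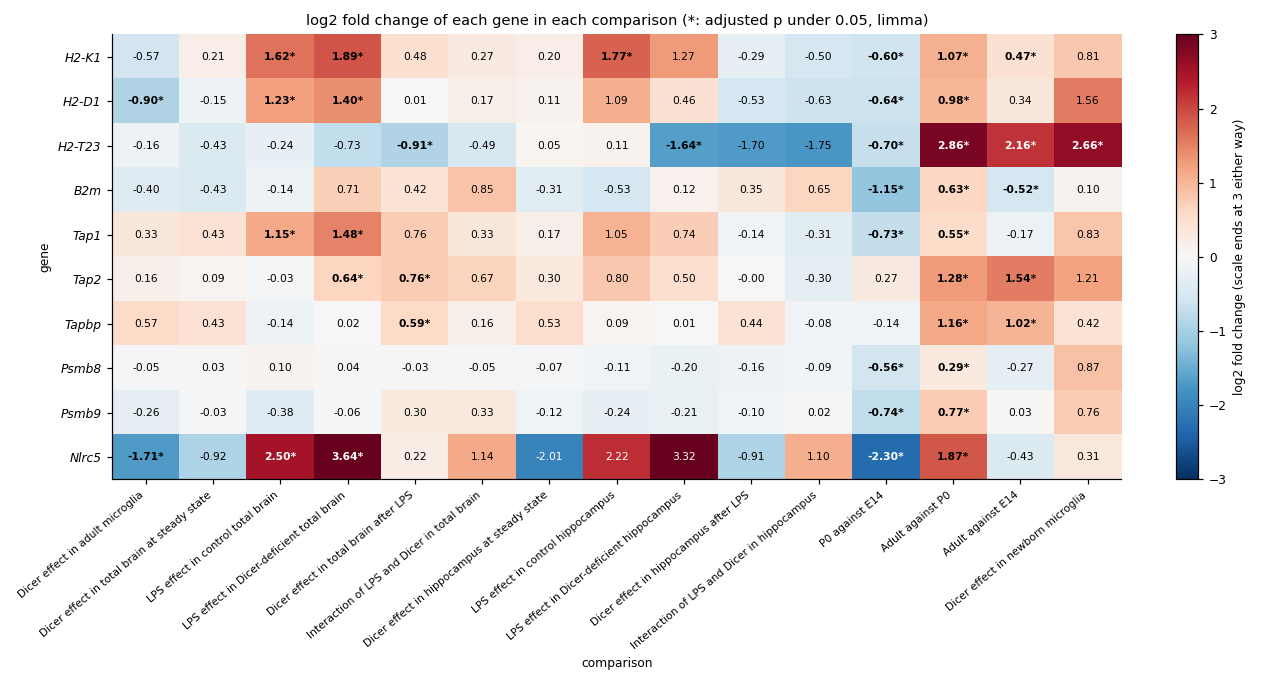
Change of each gene (rows) in each comparison (columns) on the log2(normalized reads + 1) scale, with the value printed in each cell, colours ending at -3 and 3 and a star where the gene was called by limma at an adjusted p under 0.05. Every cell of adult against P0 is positive and starred, H2-K1, H2-D1, Tap1 and Nlrc5 are starred under LPS in both total brain columns, and H2-T23 is negative after LPS without Dicer and positive in newborns without Dicer.

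Without LPS, the heavy chains H2-D1 and H2-T23 differed between genotypes in different tables. H2-D1 differed by -0.90 in the adult table, -0.15 in total brain, 0.11 in the hippocampus and 1.56 in newborns. H2-T23 differed by -0.16, -0.43, 0.05 and 2.66 in the same order. Only the adult value of H2-D1 and the newborn value of H2-T23 were called, and the differences between tables were not tested, since each table was normalized separately and the newborn table differs in Cre line and control genotype as well.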

How the data were processed

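RNA of sorted mouse microglia was sequenced in 46 libraries, spread over 4 deposited tables. The values are signal: per gene, whole reads times 1 scaling factor per library, which the authors applied before the tables were deposited. The values themselves show this: divided by the factor, at least 99.946% of them in each library came within 0.1 of a whole read. HISAT 0.1.5, SAMtools, HOMER, DESeq2 and the build mm9 are named, in no stated role or order, per the submitters' processing notes. How reads were assigned to genes is not given in the sources used here. The recovered depth was 898451 to 4573063 reads per library, and intervals or spreads cover no uncertainty from amplified copies. Every column had a sample (0 without one), and no replicate pair agreed within sampling noise (the lowest chi-square per degree of freedom was 2.26).

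Changes, SE and p-values came from limma 3.58.1 (R 4.3.3, trended variance) on log2(value + 1), with 1 fit per table and a fit of its own for the newborn comparison (5 libraries). A gene was tested where the number of libraries with a value of 1 or more reached the size of the smallest group compared, p-values were adjusted by Benjamini-Hochberg over all of them, and calls were made at an adjusted p under 0.05. The fixed design planned edgeR for raw counts and limma for normalized values, and the tables held the latter. Tables were normalized separately, so no test crosses them.

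The members, the 65 other pathway genes, the 8 class II genes, the cell markers and the motifs were chosen with earlier results of these data known. The 10 members were named in each comparison or given by range, and of the other pathway and class II genes those called were named or counted. Alternatives were pseudocounts of 0.1 and 5, no filter, edgeR 4.0.16 (TMM) and DESeq2 1.42.0 on recovered reads, fits of only the groups compared, all 5 P0 controls, a block for the replicate number, and each library left out in turn. Adult stage libraries 1 and 3 alone were added after seeing the data. Sequences and positions are from RefSeq on GRCm38.p6, a build other than the mm9 of the notes, and were not used to count reads. Transcript windows are from GENCODE M21. The procedure was tested on simulated data.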

Additional observations from a re-analysis of the deposited data

Results flagged for a closer look

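In 6 of 60 combinations of a gene and a group of 4 or 5 libraries, 1 library stood far from the others by Dixon's gap test, where chance gives about 1 in 20. Adult control 1 had 371.2 normalized reads of H2-T23, below 478.0 to 486.5 in the other 3 controls, and 24560 of B2m, above their 11480 to 12860. Total brain LPS Dicer-deficient library 36 had 9209 normalized reads of B2m, above 4751 to 5212 in the others. Total brain LPS control 32 had 957.0 normalized reads of Tap1, above 368.4 to 446.2. Adult stage library 2 had 132.5 normalized reads of Psmb9, below 196.7 to 219.2. P0 library 4 had 95.58 normalized reads of H2-T23, above 27.38 to 39.53.

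H2-D1 was lower in every Dicer-deficient adult library than in every adult control, with a change of -0.90, and higher in both Dicer-deficient newborn libraries than in their controls, with a change of 1.56. The difference between these changes was not tested, since the tables were normalized separately and the Cre line and control genotype differ.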

How the results depend on the processing

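No called member changed sign under any alternative, leaving out a library included. Of the 10 members, DESeq2 called 4 for Dicer in adult microglia (2 in the report), 1 for Dicer in total brain at steady state (0), 2 for LPS in control hippocampus (1), 2 for LPS in Dicer-deficient hippocampus (1), 1 for Dicer in hippocampus after LPS (0) and 3 for Dicer in newborns (1). With edgeR there were 5 for P0 against E14 (8), 2 for LPS in Dicer-deficient hippocampus (1) and 2 in newborns (1). Fitting only the groups compared gave 0 for LPS in control total brain (4), 0 for Dicer after LPS in total brain (3), 0 for LPS in control hippocampus (1) and 0 for LPS in Dicer-deficient hippocampus (1). A pseudocount of 0.1 gave 0 for LPS in Dicer-deficient hippocampus (1). A pseudocount of 5 and no filter each gave 2 in newborns (1), and all 5 P0 controls gave 3. The cause of these changes was not tested. A fit of 2 groups uses fewer libraries and takes the spread from those groups alone, and these were not separated.

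With 1 library left out, the number of members called ran from 1 to 3 for Dicer in adult microglia. In total brain it ran from 0 to 4 for LPS in controls and from 4 to 6 for LPS in Dicer-deficient microglia. For Dicer in total brain after LPS it ran from 0 to 3. It ran from 5 to 8 for P0 against E14, from 9 to 10 for adult against P0 and from 3 to 5 for adult against E14. For newborns and both hippocampal LPS contrasts some refits left 1 library in a group, and no range is given. The number stayed at 0 for the other Dicer comparisons and both interactions.

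Replicate numbers gave no clear pairing of the libraries. Correlations of deviations between same-numbered libraries ran from -0.21 to 0.10. Libraries correlating best with their own number were 0 of 3 for Dicer in adults, 0 of 4 for P0 against E14 and 1 of 5 for adult against P0. They were 3 of 4 for adult against E14 and 2 of 2 in newborns. The 2 Dicer-deficient newborn libraries deviate from their mean in opposite ways, so they are not separate checks. Whether same-numbered libraries shared an animal, litter or day cannot be told from this. With the replicate number as a block, 1 member was called for Dicer in adult microglia (2 without it; Nlrc5 had an adjusted p of 0.0623), 7 for P0 against E14 (8), 9 for adult against P0 (10), 5 for adult against E14 (5) and 3 in newborns (1). No paired analysis was possible in total brain and hippocampus, because the groups compared share fewer than 2 numbers.

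Scaling by edgeR moved the median change of all genes from -0.11 to -0.003 for P0 against E14 and from -0.13 to -0.01 for adult against E14. It changed the split of called members from 4 higher and 1 lower to 5 and 0 for adult against E14, and from 2 and 1 to 2 and 0 for Dicer after LPS in total brain, and DESeq2 changed it from 0 and 2 to 1 and 3 in adult microglia. Uncalled values near 0 changed sign under both tools, among them H2-D1 for Dicer in total brain at steady state. Over all genes, calls for LPS in control total brain dropped from 1897 to 2 when only those groups were fitted, and those for Dicer in total brain after LPS from 1216 to 749. Calls over all genes also moved by over 1.5 times for Dicer in adult microglia (569, and 370 with the block), Dicer in total brain at steady state (292, and 187 to 562 over the alternatives), the interaction there (23, up to 164), Dicer in hippocampus at steady state (21, and 0 to 212) and after LPS (38, and 0 to 207), LPS in control (647, and 0 to 1087) and Dicer-deficient hippocampus (1048, down to 528), the hippocampal interaction (2, up to 36) and newborns (194, and 108 to 1120). Few reads limit Nlrc5 most, with 1 to 9 per P0 library.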
